A study of Mus musculus with 12 samples.

Results

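Interleukin 10 (Il10), the chains of its receptor (Il10ra and Il10rb), and 5 genes of the SOCS family (Socs1, Socs2, Socs3, Socs7 and Cish) were followed in dendritic cells grown from mouse bone marrow. The 8 genes were taken by name from a list, each through the probe sets that the platform annotation gives to that gene alone, and where a gene had several, the one with the highest mean over the 12 arrays was used. All 8 were found among the 22180 genes measured, and no filter on low signal was applied. The question put to the data was whether LPS, a bacterial cell wall component sensed by Toll-like receptor 4, changed these genes, and whether it did so differently when the cells lacked Arc.

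Marrow of 8-week-old mice of C57BL/6 background was cultured with the growth factor GM-CSF at 20 ng/ml, and semi-adherent cells were collected on day 7. The 4 groups, each with 3 arrays, were Arc/Arg3.1 -/- (KO) cells given LPS, untreated KO cells, Arc/Arg3.1 +/+ (WT) cells given LPS and untreated WT cells. LPS was given at 100 ng/ml for 30 min, followed by washing and 1 h in medium, while untreated cells had medium alone. The labels call the replicates biological but do not say from which animals the cultures of a group came, nor how the Arc allele was made. The p-values given here therefore measure only the spread between these samples, which may be technical.

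Interleukin 10 is a cytokine that macrophages and dendritic cells release after microbial stimulation and that restrains their own inflammatory output. It binds Il10ra, which pairs with Il10rb, a chain shared with other receptors of the family, and the kinases JAK1 and TYK2 then activate the transcription factor STAT3. SOCS proteins close feedback loops on such cytokine receptors: they bind phosphorylated receptors or kinases through an SH2 domain and recruit a ubiquitin ligase through their SOCS box. Socs3 is a classic STAT3 target and Cish a classic STAT5 target, and GM-CSF, used to grow these cultures, signals through STAT5.

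The Arc signal was 7.68 to 8.05 on the KO arrays and 9.21 to 9.62 on the WT arrays, a log2 difference of -1.49 over both treatments (SE 0.12, adjusted p = 0.0015 by limma). The targeted gene thus separated the genotypes as labelled, and where its probes lie relative to the deletion is not stated. The 3 untreated WT arrays differed from each other by an SD of only 0.105 to 0.108 over bright genes, against 0.193 to 0.438 for the other 9 within-group pairs, and their mean was counted as 1 sample. On KO LPS replicate 2, untreated KO replicate 2 and WT LPS replicate 1, Y-linked genes were high (8.14 to 9.89) and Xist low (5.63 to 5.76), while the other 9 arrays had high Xist although all animals are labelled male. On replicates 2 and 3 of both LPS groups the median of 85 small RNA genes was 9.57 to 9.84, against 10.41 to 11.03 on the other 8 arrays. Dendritic cell markers such as H2-Ab1 (13.47 in KO LPS, 13.40 in untreated KO, 13.49 in WT LPS and 13.43 in untreated WT cells) and Itgax (10.93, 10.795, 11.045 and 10.74 in the same order) were well above background, as were all 11 measured markers of that list on every array.

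Il10 and Socs3 rose after LPS in both genotypes, and the other 6 genes did not pass the test in either. In KO cells Il10 rose 3.29-fold and Socs3 3.40-fold, and in WT cells Il10 rose 2.45-fold and Socs3 2.80-fold. That is 2 of 8 members higher in each genotype, where 2.98% of all genes were called higher in KO cells and 1.34% in WT cells by limma at an adjusted p under 0.05. Lower calls numbered 0 of 8 members in either genotype, with 2.93% and 0.234% of all genes, and at an unadjusted p under 0.05 Socs1 alone was lower, in KO cells. With the 12 arrays as separate samples the higher calls were the same Il10 and Socs3, beside 3.93% and 5.39% of all genes.

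**Figure D1:**
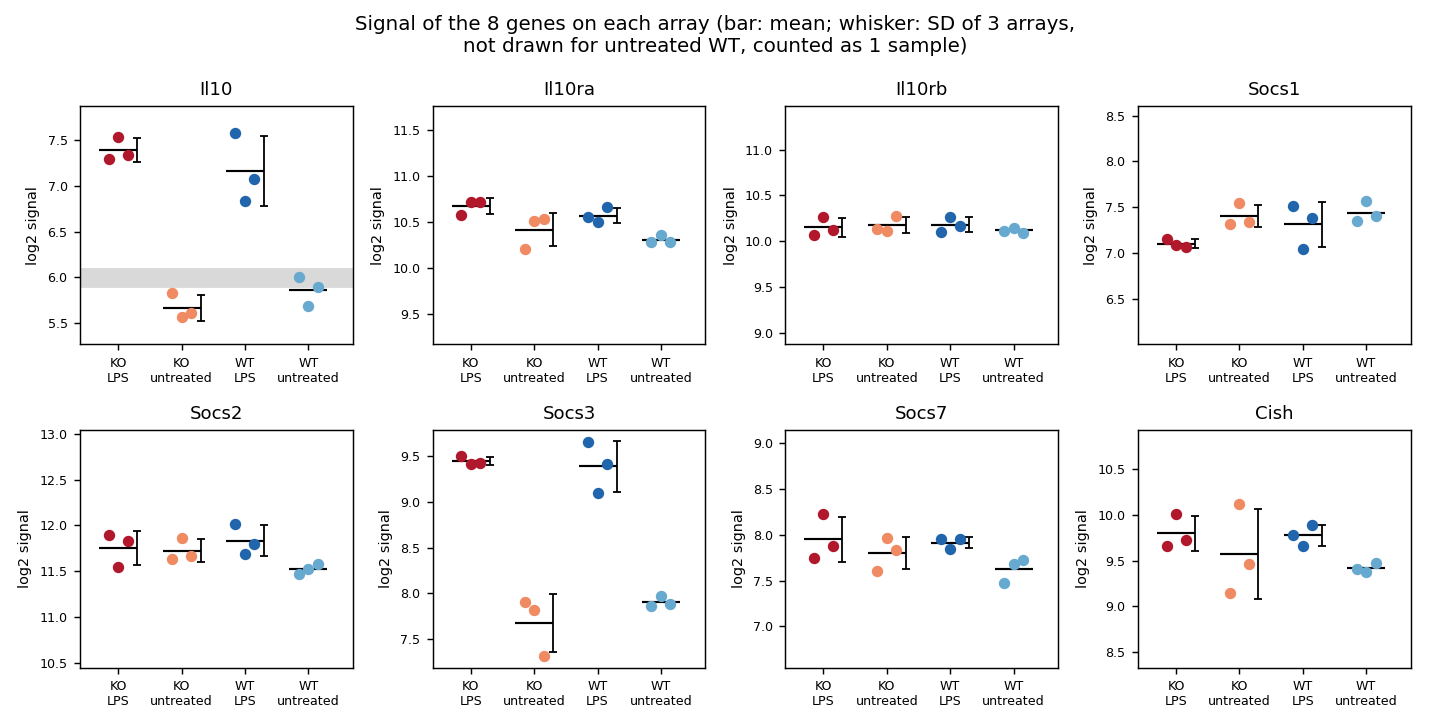
Each point is the log2 signal (vertical axis, each panel spanning the same range) of 1 array, with groups along the horizontal axis; bars are group means and whiskers the SD of 3 arrays, not drawn for untreated WT cells. In the Il10 panel the grey band is background, taken as each array's median over probe sets that carry no gene (5.89 to 6.10 over the arrays), and the untreated points lie in or under it; Il10 and Socs3 separate by treatment, and the other panels show smaller shifts.

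Il10, the ligand, stood above background only on the LPS arrays. Its log2 signal was 7.29, 7.53 and 7.34 in KO cells given LPS and 5.83, 5.56 and 5.61 in untreated KO cells. In WT cells given LPS it was 7.57, 6.83 and 7.07, and in untreated WT cells 6.00, 5.69 and 5.89. Every LPS array lay above every untreated array of the same genotype. In 6 of 6 untreated arrays Il10 was at or below the array's own median of probe sets that carry no gene, and in 6 of 6 LPS arrays above it. The folds are therefore ratios of signals and do not measure how much the transcript increased.

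The Il10 difference was 1.72 on the log2 scale in KO cells (SE 0.17, 95% interval 1.33 to 2.10, adjusted p = 2.78e-04 by limma, 3 samples against 3). An exact two-sided permutation test gave p = 0.1 for it, the smallest that 3 against 3 allows. In WT cells the difference was 1.295 (SE 0.25, 95% interval 0.75 to 1.84, adjusted p = 0.0296 by limma, 3 samples against 1 counted sample). The WT call was lost without WT LPS replicate 3 (1.34, adjusted p = 0.0666), without KO LPS replicate 3 (adjusted p = 0.0549) and without untreated KO replicate 3 (adjusted p = 0.0555), the last 2 of which enter only through the shared spread. Il10 was at its highest WT value on LPS replicate 1, the array with Y-linked signal and without low small RNA signal. Without the arrays with Y-linked signal the WT difference was 1.09 (adjusted p = 0.0248 by limma). Without those of low small RNA signal it was 1.71. That value sets 1 WT LPS array against 1 counted sample, and only untreated KO cells give a spread in that fit.

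The receptor chains were steady by comparison. Il10ra, the ligand-binding chain, had log2 signals of 10.57, 10.72 and 10.72 in KO LPS cells and 10.21, 10.515 and 10.53 in untreated KO cells. It had 10.55, 10.495 and 10.66 in WT LPS cells and 10.28, 10.35 and 10.28 in untreated WT cells. The LPS arrays lay above the untreated arrays in both genotypes, by a small margin. The difference was 0.25 in KO cells (95% interval -0.006 to 0.51, adjusted p = 0.258) and 0.27 in WT cells (95% interval -0.10 to 0.63, adjusted p = 0.734), so neither passed. Il10rb, the shared chain, stayed between 10.07 and 10.28 on all 12 arrays, with overlapping groups. Its LPS difference was -0.026 in KO cells (95% interval -0.26 to 0.20) and 0.060 in WT cells (95% interval -0.27 to 0.39).

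Socs3, which inhibits JAK kinases at receptors that use gp130 and blunts STAT3 signalling, rose in both genotypes as well. Its log2 signal was 9.50, 9.42 and 9.42 in KO LPS cells and 7.90, 7.81 and 7.32 in untreated KO cells. In WT LPS cells it was 9.66, 9.10 and 9.41, and in untreated WT cells 7.86, 7.97 and 7.88. All LPS arrays lay above all untreated arrays, and untreated KO replicate 3 was the low one. The difference was 1.77 in KO cells (SE 0.17, 95% interval 1.38 to 2.15, adjusted p = 2.38e-04 by limma). An exact two-sided permutation test again gave the smallest possible p of 0.1. In WT cells it was 1.48 (SE 0.25, 95% interval 0.94 to 2.03, adjusted p = 0.0143 by limma). Unlike Il10, Socs3 was above the background median on every untreated array. Without the arrays of low small RNA signal the WT difference was 1.75 and missed the threshold (adjusted p = 0.0958), with 1 WT LPS array left.

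A dimmer probe set for Socs3 moved the same way. It read 8.60, 8.02 and 7.89 in KO LPS cells and 6.91, 6.84 and 6.08 in untreated KO cells, and 8.46, 7.63 and 7.78 in WT LPS cells and 6.67, 6.58 and 6.49 in untreated WT cells. The log2 difference was 1.56 in KO cells (SE 0.28, adjusted p = 0.0087 over all probe sets with 1 gene). In WT cells it was 1.38 (SE 0.39, adjusted p = 0.162) and did not pass. The replicate 1 arrays of both LPS groups, those without low small RNA signal, gave its highest values.

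Cish, which is induced by STAT5 and competes with it for receptor docking sites, did not pass in either genotype. Its log2 signal was 9.655, 10.01 and 9.72 in KO LPS cells and 9.14, 10.11 and 9.46 in untreated KO cells. It was 9.78, 9.66 and 9.89 in WT LPS cells and 9.40, 9.38 and 9.47 in untreated WT cells. The KO groups overlapped and the WT groups did not. The LPS difference was 0.22 in KO cells (95% interval -0.24 to 0.69, adjusted p = 0.613) and 0.36 in WT cells (95% interval -0.30 to 1.02, adjusted p = 0.863). Untreated KO replicate 2, an array with Y-linked signal, held the highest Cish value of all 12, and without that array the KO difference was 0.495 (adjusted p = 0.130), while without untreated KO replicate 1 it was 0.010. A dimmer Cish probe set gave 0.019 in KO and 0.205 in WT cells (adjusted p = 0.967 and 0.942).

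**Figure D2:**
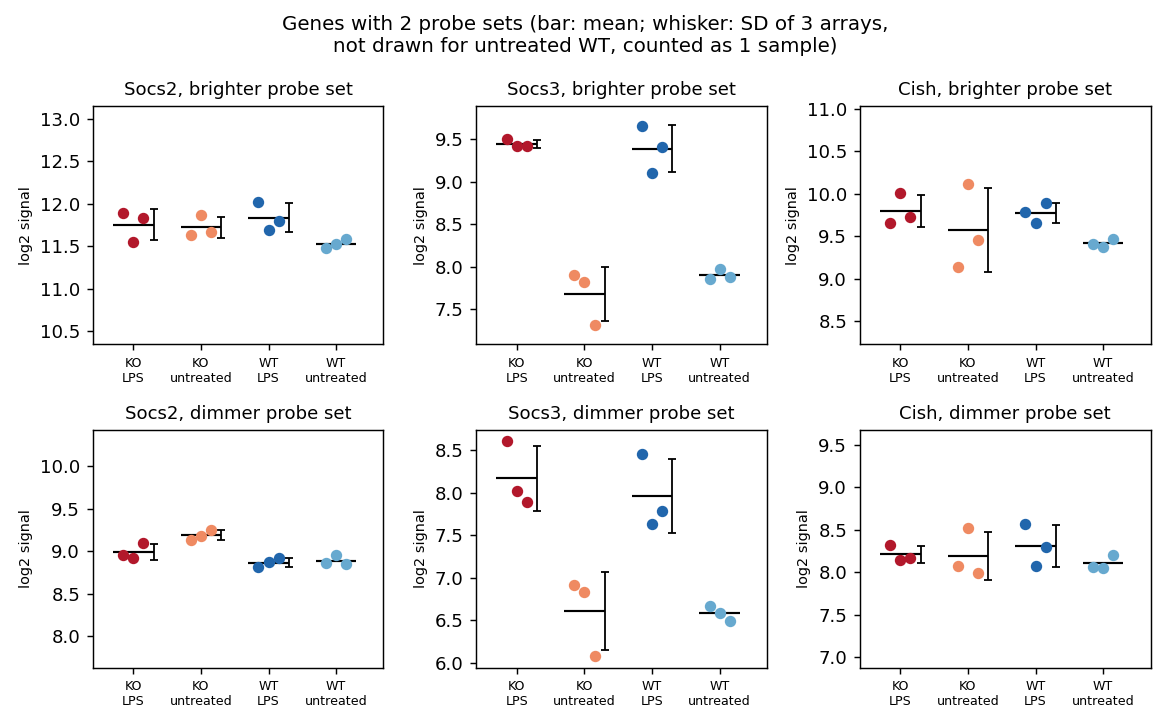
Log2 signal per array (vertical axis) of both probe sets of Socs2, Socs3 and Cish by group (horizontal axis), the brighter set above; bars are means and whiskers the SD of 3 arrays, not drawn for untreated WT cells. Both Socs3 sets separate LPS from untreated cells, while the Socs2 and Cish sets show differences under 0.4 between LPS and untreated means.

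Because Socs3 and Cish are textbook STAT targets, their promoter sequences are shown beside that of Socs1, the other member with a window. The RefSeq promoter table (GRCm38.p6) held windows for 3 of the 8 members. Each sequence below starts 250 bases before the annotated start and ends 30 bases after it, 5′ to 3′ on the gene's strand, with capitals marking the palindromic STAT motif TTCNNNGAA.
Socs3 (chr11:117969337-117969616, minus strand): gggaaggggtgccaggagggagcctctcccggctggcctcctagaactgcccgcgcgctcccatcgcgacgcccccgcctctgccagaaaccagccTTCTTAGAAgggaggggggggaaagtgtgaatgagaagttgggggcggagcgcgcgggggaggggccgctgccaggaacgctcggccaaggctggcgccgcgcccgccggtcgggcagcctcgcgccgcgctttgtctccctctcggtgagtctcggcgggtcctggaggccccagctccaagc
Cish (chr9:107296409-107296688, plus strand): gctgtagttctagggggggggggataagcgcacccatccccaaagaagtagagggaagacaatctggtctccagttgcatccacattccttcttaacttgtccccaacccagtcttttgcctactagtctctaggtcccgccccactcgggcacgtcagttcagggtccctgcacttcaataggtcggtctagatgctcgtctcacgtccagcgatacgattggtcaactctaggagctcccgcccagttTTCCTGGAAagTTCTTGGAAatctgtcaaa
Socs1 (chr16:10785507-10785786, minus strand): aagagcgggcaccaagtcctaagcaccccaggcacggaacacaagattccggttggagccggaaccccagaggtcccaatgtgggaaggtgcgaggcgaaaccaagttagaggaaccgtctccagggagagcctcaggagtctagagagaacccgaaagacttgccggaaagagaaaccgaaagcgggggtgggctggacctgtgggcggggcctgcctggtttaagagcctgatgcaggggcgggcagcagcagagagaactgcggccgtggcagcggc
Socs3 held 1 match, from -154 to -146 relative to the start, and Cish held 2, from 1 to 9 and from 12 to 20. In Socs1 these letters were not found in the window. The motif reads the same on both strands, and 8.30% of all 32851 windows of 300 bases held it. The AP-1 motif TGACTCA, searched on both strands, was in none of the 3 windows and in 5.20% of all windows. A match describes the letters of the window and does not show binding.

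Socs1, the JAK inhibitor best known for limiting interferon signalling, did not pass in either genotype. It had 7.16, 7.09 and 7.06 in KO LPS cells and 7.32, 7.545 and 7.34 in untreated KO cells, with no overlap. In WT LPS cells it had 7.51, 7.04 and 7.38, and in untreated WT cells 7.35, 7.56 and 7.40, and these overlapped. The difference was -0.30 in KO cells (95% interval -0.59 to -0.009, unadjusted p = 0.0446, adjusted p = 0.233 by limma). In WT cells it was -0.13 (95% interval -0.54 to 0.29, adjusted p = 0.970).

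Socs2, a regulator of growth hormone signalling, had log2 signals of 11.89, 11.54 and 11.83 in KO LPS cells and 11.63, 11.87 and 11.67 in untreated KO cells. It had 12.02, 11.685 and 11.80 in WT LPS cells and 11.47, 11.53 and 11.58 in untreated WT cells. The KO groups overlapped, while the WT LPS arrays lay above the untreated ones. The difference was 0.031 in KO cells (95% interval -0.26 to 0.32) and 0.31 in WT cells (95% interval -0.11 to 0.72, adjusted p = 0.723). Its dimmer probe set disagreed in sign, with -0.20 in KO and -0.024 in WT cells (adjusted p = 0.305 and 0.994). Socs7, a family member with a long extension before its SH2 domain, had 7.75, 8.23 and 7.875 in KO LPS cells and 7.61, 7.96 and 7.84 in untreated KO cells. It had 7.95, 7.84 and 7.95 in WT LPS cells and 7.47, 7.68 and 7.73 in untreated WT cells. Its difference was 0.15 in KO cells (95% interval -0.16 to 0.46) and 0.29 in WT cells (95% interval -0.15 to 0.73), and neither passed.

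Separation of the arrays was more frequent than calls. In KO cells the LPS arrays lay wholly above the untreated arrays for 3 members (Il10, Il10ra and Socs3), beside 10.3% of all genes, and wholly below for Socs1, beside 14.8%. In WT cells they lay wholly above for 6 members (Il10, Il10ra, Socs2, Socs3, Socs7 and Cish), beside 16.2% of all genes, and wholly below for 0, beside 13.9%. The WT shares rest on 3 untreated arrays that hardly differ from each other. The median LPS difference of the 8 members was 0.19 in KO cells and 0.30 in WT cells, against -0.004 and -0.005 for all genes.

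**Figure D3:**
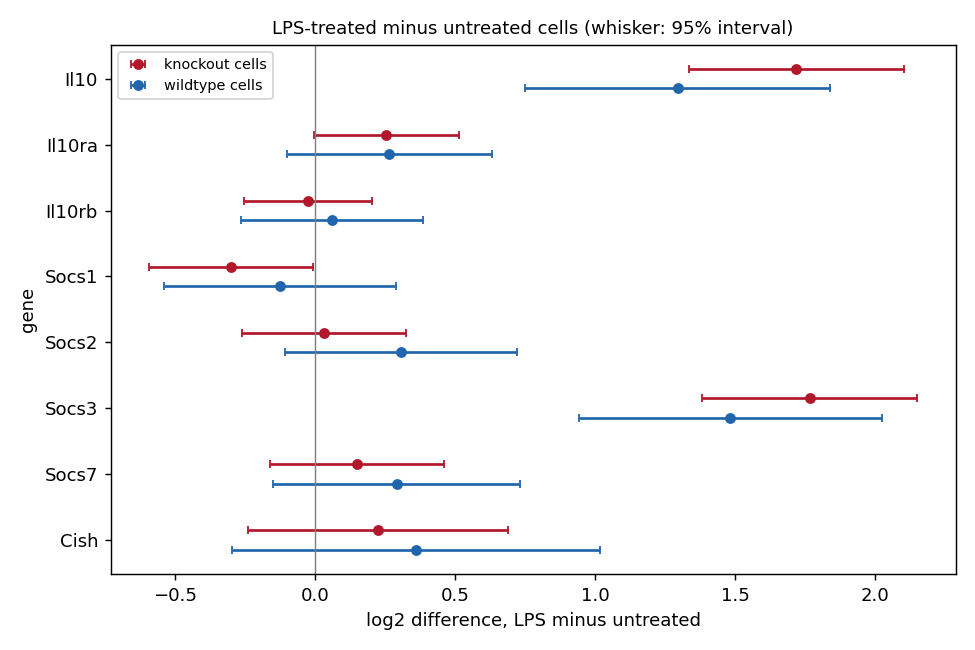
Log2 difference between LPS-treated and untreated cells (horizontal axis) for each gene (vertical axis), in KO cells (upper, red) and WT cells (lower, blue), with 95% intervals from limma. The Il10 and Socs3 intervals lie wholly above 0 in both genotypes, the Socs1 interval in KO cells ends at -0.009, and the others include 0.

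Loss of Arc gave no called difference in any of the 8 genes. For KO against WT cells, limma called 0 of 8 members without LPS, after LPS, over both treatments or for the interaction. In each of these 0 of 8 had an unadjusted p under 0.05. Both counts use the brightest probe set of each gene, and both were also 0 with 12 separate arrays. Over all genes 0.00451% were called without LPS, 0.00902% after LPS, 0.0135% over both treatments and 0% for the interaction. At an unadjusted p under 0.05 there were 897, 877, 732 and 982 of 22180 genes in the same order, so 0 of 8 members says little. With 12 separate arrays 97 genes were called without LPS, 91 of them lower in KO cells, 2 after LPS, 6 over both treatments and 55 for the interaction. In the fit with 10 samples the comparison without LPS did not call Arc itself (log2 difference -1.48, adjusted p = 0.177), while with 12 separate arrays it did (adjusted p = 8.00e-04).

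The intervals show which genotype differences these arrays leave possible. After LPS, Il10 averaged 7.39 ± 0.13 in KO cells and 7.16 ± 0.38 in WT cells (SD, n = 3 each), a difference of 0.23 with a 95% interval of -0.16 to 0.61. Without the 4 arrays of low small RNA signal, which leaves 1 array in each LPS group, this difference was -0.28. Socs3 averaged 9.44 ± 0.045 in KO and 9.39 ± 0.28 in WT cells after LPS (SD, n = 3 each), with a difference of 0.055 and an interval of -0.33 to 0.44. Without LPS, KO minus WT was -0.23 for Socs3 (interval -0.77 to 0.32). The LPS difference in KO cells minus that in WT cells was 0.28 for Socs3 (interval -0.38 to 0.95, adjusted p = 0.948). For Il10 neither the comparison without LPS nor the interaction can be read as a difference in transcript, because untreated Il10 was at or below background in both genotypes.

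Among the other members, genotype differences over both treatments ran from -0.12 for Socs1 (interval -0.38 to 0.13) to 0.11 for Il10ra (interval -0.12 to 0.33). These are values of the brightest probe sets. The dimmer Socs2 probe set gave 0.21 (SE 0.085) over both treatments, outside that range and not called. Without LPS the KO arrays lay wholly above the WT arrays for 1 member, Socs2, beside 17.7% of all genes, and wholly below for 0, beside 11.6%. Its difference there was 0.195 (interval -0.22 to 0.61), and that of its dimmer probe set 0.30 (SE 0.14, adjusted p = 0.973). After LPS the genotypes overlapped for all 8 members, where 2.81% of genes lay wholly above and 4.96% wholly below.

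**Figure D4:**
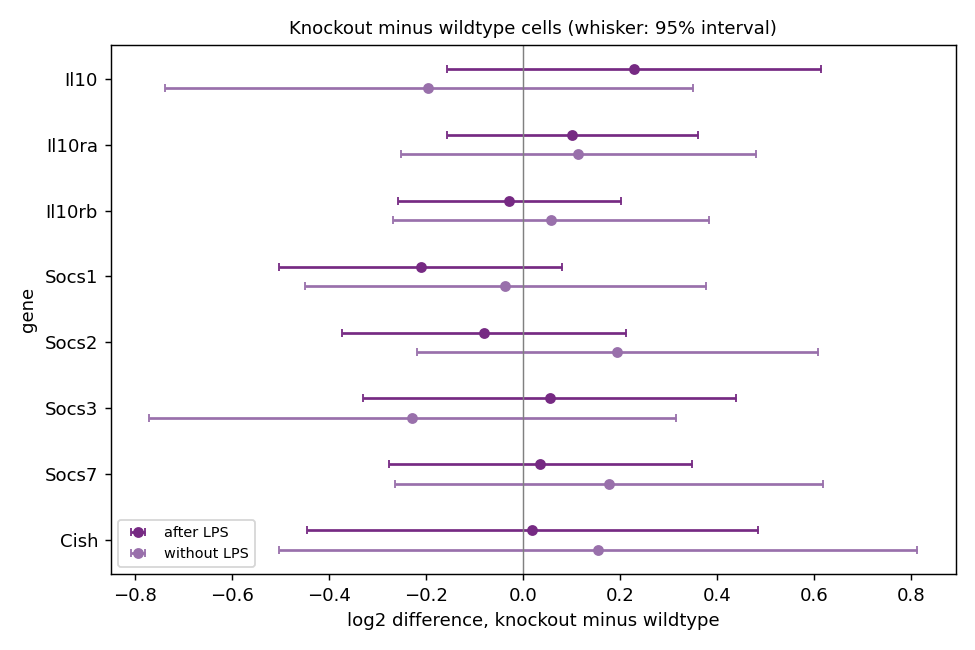
Log2 difference between KO and WT cells (horizontal axis) for each gene (vertical axis), after LPS (upper, dark) and without LPS (lower, light), with 95% intervals from limma. All 16 intervals include 0, the Il10 value without LPS is taken at background, and those without LPS are wider because untreated WT cells count as 1 sample.

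For Socs3 the group means ran KO LPS, WT LPS, untreated WT, untreated KO. The LPS groups overlapped each other, the untreated groups overlapped each other, and a gap separated WT LPS from untreated WT cells. For Il10 the KO LPS and WT LPS groups overlapped and both stood apart from the untreated groups, which have no order because all 6 untreated arrays were at or below background. Il10ra, Socs7 and Cish ran KO LPS, WT LPS, untreated KO, untreated WT, with every neighbour overlapping. For Il10rb and Socs1 every neighbour also overlapped, and for Socs2 only untreated KO and untreated WT cells stood apart.

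The wider pathway was read from 8 lists with 111 measured genes besides the members. In KO cells 19 of them rose and 3 fell after LPS, and in WT cells 9 rose and 0 fell by limma, with 37 in KO and 25 in WT cells at an unadjusted p under 0.05. Over all 22180 genes, 4493 in KO and 2199 in WT cells had such a p. At an adjusted p under 0.05 by limma, 2.98% of all genes were called higher and 2.93% lower in KO cells. In WT cells these shares were 1.34% and 0.234%, and the list and marker counts below stand beside them. Between KO and WT cells 0 of 111 passed without LPS, after LPS or over both treatments, with 0, 1 and 1 at an unadjusted p under 0.05.

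Of 12 measured cytokines that signal to SOCS genes, 5 rose in KO cells and 3 in WT cells, with list medians of 0.37 and 0.31. Over all genes 2.98% and 1.34% were called higher. Il6, which acts through gp130 and STAT3, rose 9.17-fold in KO cells (log2 3.20, SE 0.22, adjusted p = 1.79e-05) and 8.36-fold in WT cells (log2 3.06, SE 0.31, adjusted p = 7.37e-04). Ifnb1, which encodes interferon beta, rose by a log2 difference of 2.44 (SE 0.15) in KO cells and 2.22 (SE 0.21) in WT cells (adjusted p = 8.77e-06 and 4.58e-04), with untreated means of 5.08 in KO and 5.25 in WT cells that lie below background. Osm, a further gp130 cytokine, rose 2.04-fold and 2.14-fold, and Lif rose 1.56-fold in KO cells (adjusted p = 0.0119), with a log2 difference of 0.375 in WT cells that did not pass (adjusted p = 0.520).

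Kinases, receptors and other inhibitors gave few calls. Of 9 kinases and STAT factors, 1 rose in each genotype, Stat5a, at 1.80-fold in KO cells (adjusted p = 0.0039) and 1.90-fold in WT cells (adjusted p = 0.0380), with list medians of -0.028 and 0.020. Of 18 receptors of cytokines that induce Cish and SOCS genes, 0 were called in KO or WT cells (3 and 0 at an unadjusted p under 0.05 by limma). Il6st, which encodes gp130, had log2 differences of -0.42 and -0.44 there (adjusted p = 0.126 and 0.530), Lifr had -0.71 in KO cells (adjusted p = 0.125), and Csf3r had -0.58 in WT cells (adjusted p = 0.634). Of 16 other inhibitors of cytokine receptors, 0 were called in KO or WT cells (2 and 1 at an unadjusted p under 0.05 by limma), with Ptpn6, which encodes the phosphatase SHP-1, at -0.43 in KO cells (adjusted p = 0.160), Ptpn11 at 0.43 in WT cells (adjusted p = 0.563) and Pias1 at 0.23 and 0.45 (adjusted p = 0.228 and 0.205).

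Among 8 other SOCS genes and parts of their ubiquitin ligase, Socs6 fell 1.38-fold in KO cells (log2 -0.47, SE 0.11, adjusted p = 0.0366). In WT cells 0 passed (1 at an unadjusted p under 0.05 by limma), and Socs4 and Cul5 had differences of 0.34 and 0.27 (adjusted p = 0.470 and 0.630). List medians were -0.14 and -0.010. Of 11 IL-10 family cytokines and receptor chains besides the members, Il20 rose 1.51-fold in KO cells (adjusted p = 0.0215). Its means of 6.66 in KO LPS and 6.07 in untreated KO cells were close to background. In WT cells 0 of the 11 passed (0 at an unadjusted p under 0.05 by limma), with Il22ra2 at 0.18 and Il20rb at 0.165. Il22ra2 averaged 5.49 in WT LPS and 5.31 in untreated WT cells, under background, where other genes of this list also lay.

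Factors that act on Il10 transcription rose in part. Of 18 measured, 7 rose in KO and 3 in WT cells, beside 2.98% and 1.34% of all genes. None of the list was called lower, and list medians were 0.22 and 0.33. Dusp1, a phosphatase that switches off MAP kinases, rose 2.64-fold and 2.78-fold (adjusted p = 2.66e-05 and 5.47e-04). Ahr, a ligand-activated transcription factor, rose 2.41-fold and 2.54-fold, and Map3k8, the kinase that links Toll-like receptors to ERK, 2.20-fold and 2.24-fold (adjusted p at most 0.0054 for these 4 values). Prdm1 rose 1.67-fold in KO cells (adjusted p = 0.0184), and its log2 difference of 0.63 in WT cells did not pass (adjusted p = 0.286).

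Of 21 genes known to be induced by IL-10 through STAT3 in myeloid cells, 5 rose and 2 fell in KO cells and 2 rose in WT cells. List medians were 0.21 and 0.285. Over all genes 2.98% were called higher and 2.93% lower in KO cells, and 1.34% higher in WT cells. Il1rn, the interleukin 1 receptor antagonist, rose 2.28-fold in KO cells (adjusted p = 0.0022) and 2.62-fold in WT cells (adjusted p = 0.0166). Il21r, a cytokine receptor gene, rose 1.75-fold in KO cells (adjusted p = 0.0040) and 2.05-fold in WT cells (adjusted p = 0.0177). Hmox1, heme oxygenase, rose 2.00-fold in KO cells (adjusted p = 0.0191), and its ratio of 2.20 in WT cells did not pass (adjusted p = 0.110). Arg1, arginase, and the Fc receptor gene Fcgr3 fell 1.93-fold and 1.84-fold in KO cells (adjusted p = 0.0281 and 0.0304), and in WT cells their log2 differences of -0.67 and -0.55 did not pass (adjusted p = 0.517 and 0.619). Many of these genes are also known to answer Toll-like receptors directly.

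The genes whose pattern over the 12 arrays was closest were found among 10285 genes of above-median signal, by Pearson's correlation over arrays that share treatment and genotype within a group, and it is given as a description. For Il10 they were Cdc42ep2 (r = 0.983), Cxcl1 (r = 0.983), a neutrophil-attracting chemokine, and Dusp2 (r = 0.983), a nuclear MAP kinase phosphatase. For Socs3 they were Dusp2 (r = 0.986), Calcb (r = 0.985) and Sdc4 (r = 0.982), a cell surface proteoglycan. For Cish they were Mfsd2a (r = 0.935), a lipid transporter, Sft2d2 (r = 0.917) and Slc7a5 (r = 0.870), a chain of a large amino acid transporter. Dusp2 averaged 9.58 in KO LPS, 7.27 in untreated KO, 9.59 in WT LPS and 7.53 in untreated WT cells. Mfsd2a averaged 8.01, 7.49, 7.79 and 7.14 in the same groups.

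Markers of other myeloid cells moved with LPS, beside the rise of Il10 and Socs3. The summed linear signal of 12 neutrophil markers was 4501 to 5263 in KO LPS and 8659 to 11005 in untreated KO cells, and 3455 to 6563 in WT LPS and 10820 to 10984 in untreated WT cells. Of these markers 6 fell in KO cells and 1 in WT cells, beside 2.93% and 0.234% of all genes called lower. Their median log2 differences were alike, -0.95 in KO and -0.98 in WT cells, with 8 in each at an unadjusted p under 0.05 by limma. The WT test sets 3 samples against 1 counted sample. For 6 inflammatory monocyte markers the sums were 2395 to 3915 and 7338 to 8664 in KO LPS and untreated KO cells, and 2890 to 4640 and 7960 to 8451 in WT LPS and untreated WT cells, with 3 and 1 lower. Median log2 differences of these 6 were -0.95 in KO and -1.03 in WT cells, with 5 and 4 at an unadjusted p under 0.05 by limma. For 9 macrophage markers the sums were 10404 to 17486 and 19187 to 21388, then 14165 to 16247 and 20152 to 21295, with 1 and 0 lower. The 1 was Lyz2, the brightest of the 9, which weighs most in these sums (12.37 in KO LPS and 13.23 in untreated KO cells). Median log2 differences of the 9 were -0.34 in KO and -0.30 in WT cells. Mast cell and basophil sums of 8 markers were 1780 to 2482 and 1617 to 1688 in the KO groups and 1497 to 2552 and 1520 to 1563 in the WT groups, with Fcer1a at or below background on every array. Of these 8, Hdc rose in KO cells (adjusted p = 0.0409). Sums of 5 eosinophil markers were 396 to 553 in KO LPS and 574 to 706 in untreated KO cells, and 429 to 536 in WT LPS and 658 to 690 in untreated WT cells. Of these, Prg2 fell in both genotypes (adjusted p = 0.0078 in KO and 0.0169 in WT cells), and Ear6 was at or below background on every array. B cell, T cell and NK cell sums stayed at or below 666, with 0 markers called in either genotype and 0 at an unadjusted p under 0.05 by limma. The NK cell sums were 322 to 382 in WT LPS and 430 to 458 in untreated WT cells. They were 352 to 387 in KO LPS and 296 to 389 in untreated KO cells. Gzma of the NK cell list was at or below background on every array, and Klrb1c and the T cell marker Cd3g were above it on only 1 array each. The sums of 11 dendritic cell markers were 41105 to 42690 in KO LPS and 36410 to 38727 in untreated KO cells, and 40082 to 41858 in WT LPS and 35932 to 36746 in untreated WT cells. Zbtb46 and Cd86 of this list rose in both genotypes, and Irf4 rose in KO cells (adjusted p = 0.0119 by limma). In KO cells 6 of the 11 had an unadjusted p under 0.05 by limma. Besides those named, these were Batf3 (-0.31), Ciita (-0.375) and Dpp4 (-0.28), all lower after LPS. After adjustment 0 were called lower in either genotype. In bulk samples, fewer cells of a type and less RNA per cell cannot be told apart, and the part of these markers in the results was not tested.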

How the data were processed

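Total RNA of 12 cultures was measured on 1 Affymetrix array each, per the labels' protocols. The deposited values are 1 log2 signal per probe set and array made by the authors. They were background-corrected and normalized, if at all, by methods not given in the sources used here, while the submitters' processing notes name only limma. Array medians were 6.50 to 6.67, and precision is limited by how few arrays there are.

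The platform annotation names 1 gene for 23521 of 34390 probe sets, several for 1814 and none for 9055. The probe set with the highest mean stood for each gene. All 8 members were found in a RefSeq gene table.

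From these values limma 3.58.1 in R 4.3.3 (lmFit, eBayes, two-sided, Benjamini-Hochberg over 22180 genes, threshold 0.05) tested 6 comparisons. The 3 untreated WT arrays were averaged into 1 sample, because they differed by less than other replicates, giving 10 samples and 6 residual degrees of freedom, and that sample is assumed to vary like the others. The steps were tested on simulated data. The members, gene lists, tests and alternatives were chosen with earlier results of these data known.

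Named were the 8 members, Arc, up to 4 genes past the threshold from each list per LPS comparison (largest difference) or otherwise the 2 with the smallest p, and the 3 genes most correlated with Il10, Socs3 and Cish. Values of such genes in the other genotype and the cell type markers named were chosen after their values were seen.

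Replicate numbers were checked for pairing through residual correlations over all genes. Same-numbered KO LPS and untreated KO arrays gave 0.381, 0.299 and 0.196, and KO LPS and WT LPS arrays 0.338, 0.358 and 0.228. Untreated KO and WT LPS arrays gave 0.145, 0.196 and 0.175. Differently numbered arrays were not compared, and replicates 2 and 3 of both LPS groups share low small RNA signal. Y-linked signal marked replicate 2 in both KO groups but replicate 1 in WT LPS cells. For the comparisons with untreated WT arrays the correlations ranged from -0.053 to 0.113. Pairing by number was thus not established.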

Additional observations from a re-analysis of the deposited data

How the results depend on the processing

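The count of members past the threshold was recomputed under 28 alternatives, 12 of which leave out 1 array. For LPS in KO cells it stayed at 2 (Il10 and Socs3) under every alternative that gave it, also between 2 and 2 on leaving out 1 array. Among these, the fit without the 4 arrays of low small RNA signal kept 1 KO LPS array, and only untreated KO cells gave a spread. Its log2 differences were 1.62 for Il10 and 1.82 for Socs3. For LPS in WT cells it was 2, but 1 (Il10) with the lowest probe set of each gene, where Socs3 had a log2 difference of 1.38 (adjusted p = 0.156), and 1 (Il10) without the 4 arrays of low small RNA signal. Leaving out 1 array gave 1 to 2, with Il10 past the threshold no longer without WT LPS replicate 3, KO LPS replicate 3 or untreated KO replicate 3. The cause was not tested. For the 3 comparisons of KO with WT cells and the interaction it was 0 throughout. The filter on genes above the median signal removed Il10, so no count was made there, and Socs3 kept its call in both genotypes. Of 1274 values of single members under an alternative, 5 lost a call, 0 gained one and 0 called values changed sign, while 79 values that passed neither way did. With the replicate number as a block, the count stayed at 2 for LPS in KO cells, with adjusted p = 0.0016 for Il10 and 0.0018 for Socs3 in the fit of these 2 groups, and the block changed no other call. The fit of only the groups compared was run for LPS in KO cells and for KO against WT cells after LPS, since untreated WT cells are 1 sample. Il10 signals near background limit what its folds mean.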
